A study of Mus musculus with 30 samples.

Results

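Zic1, Zic2, Zic4 and Zic5, members of the Zic family of transcription factors, were followed through mouse cortex that lacked or carried Tbr1. The family was proposed by name with results of these data already known, and its members were taken as the genes that probe sets naming a single gene measured in both deposited tables. These were 4 of the 16553 genes in both tables. Where a gene had several probe sets, the brightest was kept, that is, probe sets were selected on their mean signal over all arrays of a stage, and signal levels are therefore given as a description. The study used 30 Affymetrix arrays and asked how gene expression in the developing cortex depends on Tbr1, a T-box transcription factor of early-born cortical neurons.

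Every sample came from CD1 mice of a line kept as Tbr1 heterozygotes. The groups were Tbr1 -/- (KO) neocortex at E14.5 (3 arrays), WT neocortex at E14.5 (3 arrays), and KO or WT frontal, parietal and occipital brain tissue at P0.5 (4 arrays in each of the 6 groups). The null allele was carried in every cell of the KO mice, no drug or transgene was named for any group, and the labels did not say whether animals were pooled or what a shared array number marks. The p-values therefore measure the spread between these arrays, which may in part be technical. The samples were dissected tissue rather than sorted cells, so fewer cells of a type and less RNA per cell cannot be told apart.

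Zic proteins carry a run of C2H2 zinc fingers related to those of the Gli proteins, the effectors of hedgehog signalling, and they can bind DNA or act as cofactors of other regulators. In the embryo they mark the dorsal neural tube, and in the forebrain they are known from the dorsal midline, the septum, Cajal-Retzius cells that arise there, and the meninges that cover the cortex. Zic1 is needed for growth of the mouse cerebellum, Zic2 for division of the forebrain into hemispheres, and Zic5 for neural tube closure and neural crest in the mouse. ZIC1 and ZIC4 lie together in a human interval whose deletion is linked to Dandy-Walker malformation, a defect of the cerebellum.

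The 4 genes lie in 2 neighbouring pairs. In the RefSeq gene order Zic1 and Zic4 are adjacent on chromosome 9, and Zic5 and Zic2 are adjacent protein-coding genes on chromosome 14 with the noncoding RNA 2610035F20Rik between them. The start regions of Zic1, Zic4 and Zic5 are shown because the neighbours Zic1 and Zic4, which both separated KO from WT at E14.5, differ in base composition there. Each sequence is the RefSeq window from 250 bases before to 50 bases after the gene start in build GRCm38.p6, read 5′ to 3′ on the strand of the gene, with every CpG dinucleotide in capitals. The Zic1 window is chr9:91365719-91366018 on the minus strand, the Zic4 window is chr9:91368722-91369021 on the plus strand, and the Zic5 window is chr14:122465609-122465908 on the minus strand.
Zic1: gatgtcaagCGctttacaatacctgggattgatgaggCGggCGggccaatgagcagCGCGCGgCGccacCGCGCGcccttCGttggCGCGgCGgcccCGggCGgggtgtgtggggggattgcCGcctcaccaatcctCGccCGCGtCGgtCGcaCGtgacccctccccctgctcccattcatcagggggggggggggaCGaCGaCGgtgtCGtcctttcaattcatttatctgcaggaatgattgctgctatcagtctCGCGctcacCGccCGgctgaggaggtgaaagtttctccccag
Zic4: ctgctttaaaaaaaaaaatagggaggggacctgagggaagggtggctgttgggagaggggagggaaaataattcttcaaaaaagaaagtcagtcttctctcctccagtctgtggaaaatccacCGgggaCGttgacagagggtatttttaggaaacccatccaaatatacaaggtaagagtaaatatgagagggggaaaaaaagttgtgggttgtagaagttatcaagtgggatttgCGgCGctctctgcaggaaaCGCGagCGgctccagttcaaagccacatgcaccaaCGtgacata
Zic5: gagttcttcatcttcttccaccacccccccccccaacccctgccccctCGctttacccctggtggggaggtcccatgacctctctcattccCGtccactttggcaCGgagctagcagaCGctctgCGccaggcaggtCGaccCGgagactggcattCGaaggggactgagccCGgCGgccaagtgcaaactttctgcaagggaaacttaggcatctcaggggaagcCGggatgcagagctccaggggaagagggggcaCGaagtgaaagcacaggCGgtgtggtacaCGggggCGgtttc

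The Zic1 window held 31 CpG dinucleotides and 65.3% G and C, and 89.4% of the 32851 promoters in the RefSeq table held fewer CpG. The Zic4 window held 8 CpG at 46.0% G and C, close to the median promoter with 7 CpG and 52.7%. The Zic5 window lay between them with 15 CpG and 62.7%. The windows were searched on both strands for 5 fixed strings, none of which contains another. The T-box string GGTGTGA, present in 3.98% of promoters, had 0 matches in the 3 windows, as had the Zic string CAGCAGG (10.51% of promoters), the Gli string GACCACCCA (0.25%) and the TATA string TATAAA (13.62%). The string CCAAT, present in 37.41% of promoters, had 2 matches in Zic1 and 0 in Zic4 and Zic5.

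The targeted gene was checked first. At E14.5 Tbr1 had log2 signals of 8.69, 7.23 and 7.57 in KO arrays 1 to 3, against 9.36, 8.89 and 9.11 in WT arrays 1 to 3. KO array 1 was thus the closest of the KO arrays to the WT arrays, although the groups did not overlap. At P0.5 Tbr1 fell by 0.68 on the log2 scale in KO tissue over the regions (limma adjusted p = 1.17e-05). The median signal of an array was 5.12 to 5.15 in the E14.5 table and 7.42 to 7.52 in the P0.5 table. The stages were measured on different array types in separate tables, so signal levels are not compared between them.

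At E14.5 Zic1 and Zic4 signals were higher in all 3 KO arrays than in all 3 WT arrays, and Zic2 and Zic5 had higher means in KO with overlapping arrays. None of the 4 differences passed the threshold, which was 0.05 for the p adjusted by Benjamini-Hochberg over the whole table. In this comparison 0 of 18194 genes passed (0%), and 1048 genes (5.76%) had an unadjusted p under 0.05, among them Zic1 and Zic4. Zic4, whose protein acts with Zic1 in cerebellar growth in the mouse, had log2 signals of 5.84, 7.20 and 7.42 in the KO arrays, against 5.10, 5.27 and 5.29 in the WT arrays. KO arrays 2 and 3 stood far above WT, and KO array 1 only slightly above. The difference was 1.60 ± 0.384 (SE, n = 3 arrays each; limma adjusted p = 0.85), a 3.03-fold higher signal with a 95% interval of 1.63 to 5.65.

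Zic1, the family member with the brightest signal at E14.5, had log2 signals of 9.47, 10.97 and 10.69 in the KO arrays, against 8.88, 9.16 and 9.33 in the WT arrays. The groups did not overlap, with KO array 1 again just above the WT arrays. The difference was 1.25 ± 0.375 (SE, n = 3 arrays each; limma adjusted p = 0.85), or 2.38-fold with a 95% interval of 1.3 to 4.38. Every replicate was higher in KO for 7.43% of all genes and lower for 3.74%, so the separation of 2 of 4 members is to be read beside that share. The members' median difference was 0.98, beside 0.06 over all genes of the table.

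Zic2, the family member tied to forebrain division, had log2 signals of 6.74, 7.11 and 7.07 in the KO arrays, against 6.54, 6.62 and 6.82 in the WT arrays. KO array 1 lay below the highest WT array, so the groups overlapped, and the difference was 0.31 ± 0.178 (SE, n = 3 arrays each; limma adjusted p = 0.897). Zic5 had log2 signals of 4.49, 5.92 and 5.73 in the KO arrays, against 4.27, 4.70 and 5.06 in the WT arrays. Here too KO array 1 lay within the WT range while KO arrays 2 and 3 were above it. The Zic5 difference was 0.71 ± 0.38 (SE, n = 3 arrays each; limma adjusted p = 0.894).

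**Figure D1:**
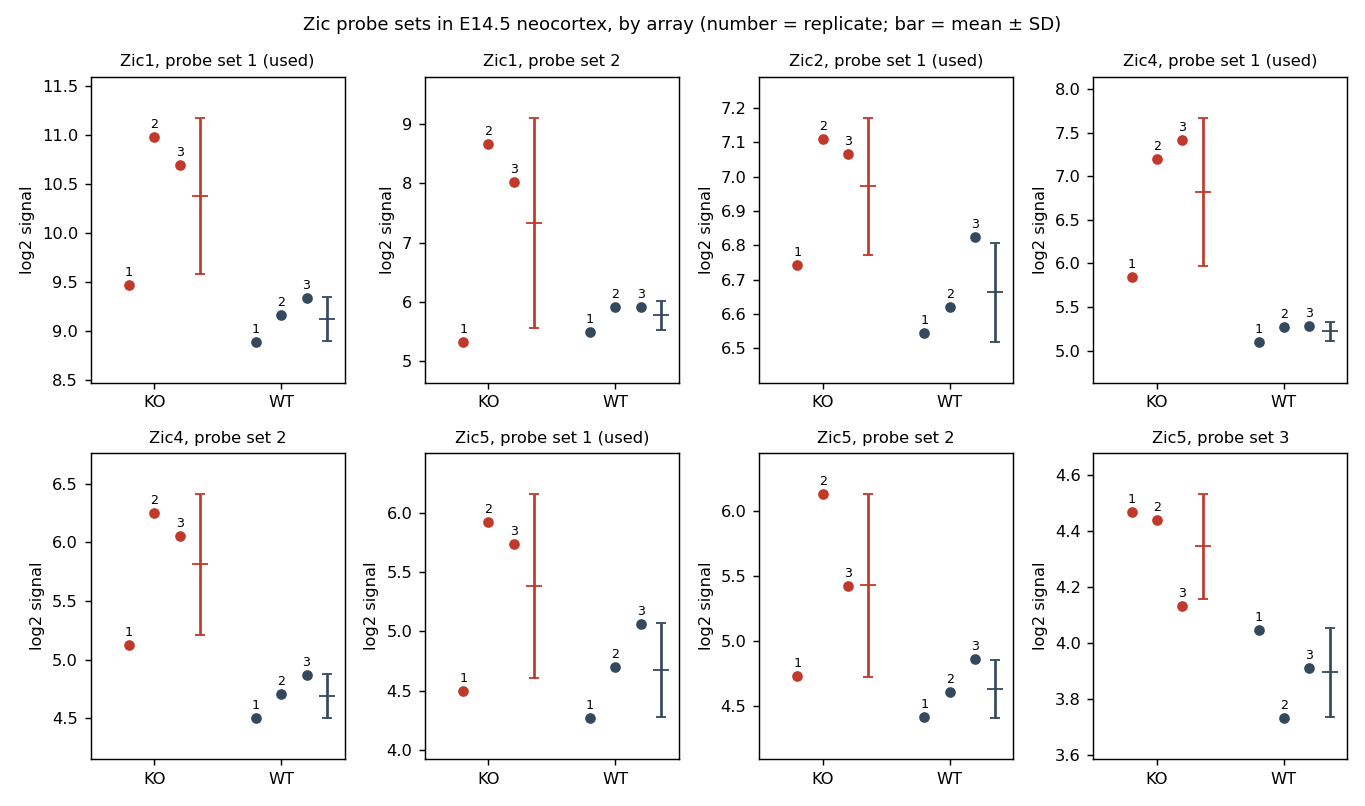
Log2 signal (vertical axis) of the 8 Zic probe sets in KO (left) and WT (right) neocortex at E14.5, one point per array with its replicate number, and bars for the group mean ± SD. KO arrays 2 and 3 stand above all WT arrays in every panel, and in the panels marked as used KO array 1 lies closer to WT, at 9.47 for Zic1 and 4.49 for Zic5.

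Probe sets of the members that were not used gave the same direction at E14.5. The Zic1 probe set with the lower mean had 5.32, 8.66 and 8.03 in the KO arrays, against 5.48, 5.91 and 5.92 in the WT arrays, a difference of 1.56 (limma adjusted p = 0.881). KO array 1 was the lowest of the 6 arrays there. The other Zic4 probe set had 5.13, 6.25 and 6.06 in the KO arrays, against 4.50, 4.71 and 4.87 in the WT arrays, a difference of 1.12 (limma adjusted p = 0.85) with no overlap. The 2 other Zic5 probe sets differed by 0.80 and 0.45 (limma adjusted p = 0.857 and 0.847), and the brighter had a mean signal of 5.03, level with the probe set that was used. The dimmest Zic5 probe set had 4.47, 4.44 and 4.13 in the KO arrays, against 4.05, 3.73 and 3.91 in the WT arrays, and there KO array 1 was the highest.

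Leaving out KO array 1 raised the difference of each of the 4 probe sets used. Without it Zic4 differed by 2.09 and passed the threshold (limma adjusted p = 0.0149), and with array weights Zic4 differed by 2.11 (adjusted p = 0.0284). In each of these settings 2 of 18194 genes passed. Same-numbered arrays deviated together at E14.5. With the replicate number as a block, Zic1 and Zic4 both had a limma adjusted p of 0.568. Both genotypes hold every number, so such a block could not move the differences of 1.25 and 1.60 themselves.

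Some marker lists of other tissues separated the E14.5 groups, and others did not. The mean log2 signal of 14 meningeal fibroblast genes was 7.70, 7.99 and 7.13 in KO arrays 1 to 3, against 6.51, 6.64 and 6.78 in WT arrays 1 to 3. All 14 had a higher mean in KO, with a median difference of 0.83, and 0 passed the threshold (limma; 7 had an unadjusted p under 0.05). For example Col1a2, a fibrillar collagen chain, ranged from 9.32 to 11.64 in KO and from 8.50 to 8.56 in WT. Foxc1, a regulator of the meninges, ranged from 6.87 to 8.45 in KO and from 6.50 to 7.02 in WT. Some genes of the list hardly differed, such as Ptgds, with a mean of 8.15 in KO and 8.10 in WT. The KO array with the highest meningeal level, array 2, also had the highest Zic1 signal, while array 1, second in meningeal level, had the lowest Zic1 signal of the KO arrays.

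Choroid plexus genes (7 of 8 measured) ranged from 6.88 to 7.12 in KO arrays and from 5.65 to 6.57 in WT arrays in mean signal, again without overlap. Dorsal midline and cortical hem genes include BMP and Wnt ligands made where Zic genes are active. They ranged from 6.10 to 6.72 in KO and from 5.59 to 5.86 in WT, and 14 of 15 had a higher mean in KO. Among the 14 was Lhx2, which restrains the hem, with a mean of 11.53 in KO and 11.32 in WT. Thalamic genes had means of 6.18, 6.26 and 7.25 in KO arrays 1 to 3, and ranged from 5.92 to 6.12 in WT. KO arrays 1 and 2 thus lay just above the WT range and only array 3 far above it, and 6 of 8 genes had a higher mean in KO. Projection neuron genes of the labelled tissue (5 of 8 measured) ranged from 8.05 to 8.73 in KO and from 8.81 to 9.38 in WT. Septal genes (median difference 0.01, 4 of 8 higher in mean in KO), olfactory bulb genes (0.01, 5 of 9) and striatal genes (-0.02, 4 of 8) did not separate the groups. Cajal-Retzius genes ranged from 5.97 to 6.45 in KO and from 5.99 to 6.24 in WT, with a median difference of 0.15. Single genes of that list went opposite ways, with 7 of 10 higher in mean in KO and 0 past the threshold (limma). Reln ranged from 7.95 to 8.86 in KO and from 9.11 to 10.01 in WT. Ebf3 ranged from 7.07 to 8.63 in KO and from 5.98 to 6.10 in WT. Of 10 GABAergic interneuron genes 0 had a higher mean in KO, with a median of -0.31. Their mean signal still overlapped, from 5.99 to 7.83 in KO and from 7.23 to 8.10 in WT, and KO array 2 was the lowest. The mean of 3 Y-linked genes ranged from 3.66 to 4.04 in KO and from 3.66 to 4.68 in WT. The part of these markers in the Zic differences was not tested.

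At P0.5 the picture was another. Zic1 had lower mean signals in KO than in WT in all 3 regions, but the spread lay between arrays of 1 group more than between genotypes, and 0 of 4 members passed the threshold in frontal, parietal or occipital tissue or over the regions. The share of all genes that passed was 7.52% in frontal, 1.81% in parietal and 1.34% in occipital tissue and 7.46% over the regions. At an unadjusted p under 0.05 there were 2 members in frontal tissue (Zic4 and Zic5), 0 in parietal and occipital tissue, and 1 over the regions (Zic5), beside 27.5%, 9.32%, 10.8% and 19.2% of all genes.

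In frontal tissue Zic1 had log2 signals of 7.46, 7.89, 7.71 and 7.16 in KO arrays 1 to 4, against 9.10, 7.41, 7.14 and 8.94 in WT arrays 1 to 4. WT arrays 1 and 4 were high, and WT arrays 2 and 3 lay within or just below the KO range. In parietal tissue Zic1 had 6.98, 7.26, 6.83 and 7.01 in KO, against 7.46, 7.21, 7.54 and 7.11 in WT, the narrowest groups of the 3 regions. In occipital tissue it had 8.86, 7.02, 7.26 and 7.18 in KO, against 10.24, 7.48, 6.89 and 8.14 in WT, with array 1 the highest in both genotypes.

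The KO minus WT differences of Zic1 were -0.59 ± 0.493 in frontal, -0.31 ± 0.493 in parietal and -0.61 ± 0.493 in occipital tissue (SE, n = 4 arrays each; limma adjusted p = 0.424, 0.969 and 0.712). Over the regions the difference was -0.50 ± 0.279 (SE, n = 4 values each; limma adjusted p = 0.356), with a 95% interval of the KO to WT ratio from 0.466 to 1.07. Leaving out each value gave -0.74 to -0.16, the smallest in size without the WT arrays numbered 1. Ordered by mean, Zic1 stood at 8.19 ± 1.46 in WT occipital, 8.15 ± 1.01 in WT frontal, 7.58 ± 0.861 in KO occipital, 7.56 ± 0.318 in KO frontal, 7.33 ± 0.202 in WT parietal and 7.02 ± 0.177 in KO parietal tissue (SD, n = 4 each). No neighbours in that order were separated by more than the larger of their SDs, except WT parietal and KO parietal tissue, whose arrays overlapped.

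Zic2 followed the same arrays. It had 7.06, 7.72, 7.34 and 6.91 in KO frontal arrays, against 8.20, 7.24, 6.67 and 8.33 in WT frontal arrays. It had 6.99, 7.42, 7.15 and 7.00 in KO parietal arrays, against 7.44, 7.23, 7.34 and 7.17 in WT parietal arrays. It had 8.05, 7.16, 7.09 and 7.15 in KO occipital arrays, against 8.73, 7.28, 7.05 and 7.75 in WT occipital arrays. The high arrays were those with high Zic1, and the groups overlapped in each region. The differences were -0.35, -0.15 and -0.34 in frontal, parietal and occipital tissue and -0.28 ± 0.179 over the regions (SE, n = 4 values each; limma adjusted p = 0.453, 0.976, 0.745 and 0.433). Leaving out each value gave -0.45 to -0.09 over the regions, again the smallest in size without the WT arrays numbered 1.

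Zic4 and Zic5 were each measured by 2 probe sets at P0.5, and the brighter of each pair, which was used, varied little between arrays. The array annotation names the genes of these probe sets, and whether the ones used measure only those transcripts was not tested, so their values may belong to another transcript. The Zic4 probe set used, which lists no RefSeq mRNA in the array annotation, had 6.41, 6.98, 6.74 and 6.87 in KO frontal arrays, against 7.04, 6.91, 7.03 and 7.11 in WT frontal arrays. Its frontal difference was -0.27 ± 0.105 (SE, n = 4 arrays each; limma adjusted p = 0.103), and KO array 2 lay within the WT range. Without KO frontal array 2 the difference was -0.35 and passed the threshold (limma adjusted p = 0.0395), in a setting where 2221 of 19938 genes passed, against 1499 with it. In parietal and occipital tissue the Zic4 differences were 0.02 and 0.03 (limma adjusted p = 0.996 and 0.947), and over the regions -0.07 (adjusted p = 0.501).

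Both Zic5 probe sets list a RefSeq mRNA in the array annotation. The one used had 7.84, 7.76, 7.75 and 7.77 in KO frontal arrays, against 7.83, 7.93, 8.02 and 8.13 in WT frontal arrays. Only WT array 1 lay within the KO range there. The Zic5 differences were -0.20 ± 0.0926 in frontal tissue (SE, n = 4 arrays each; limma adjusted p = 0.163), -0.12 in parietal and -0.05 in occipital tissue (adjusted p = 0.853 and 0.893). Over the regions Zic5 differed by -0.12 ± 0.0506 (SE, n = 4 values each; limma adjusted p = 0.189).

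**Figure D2:**
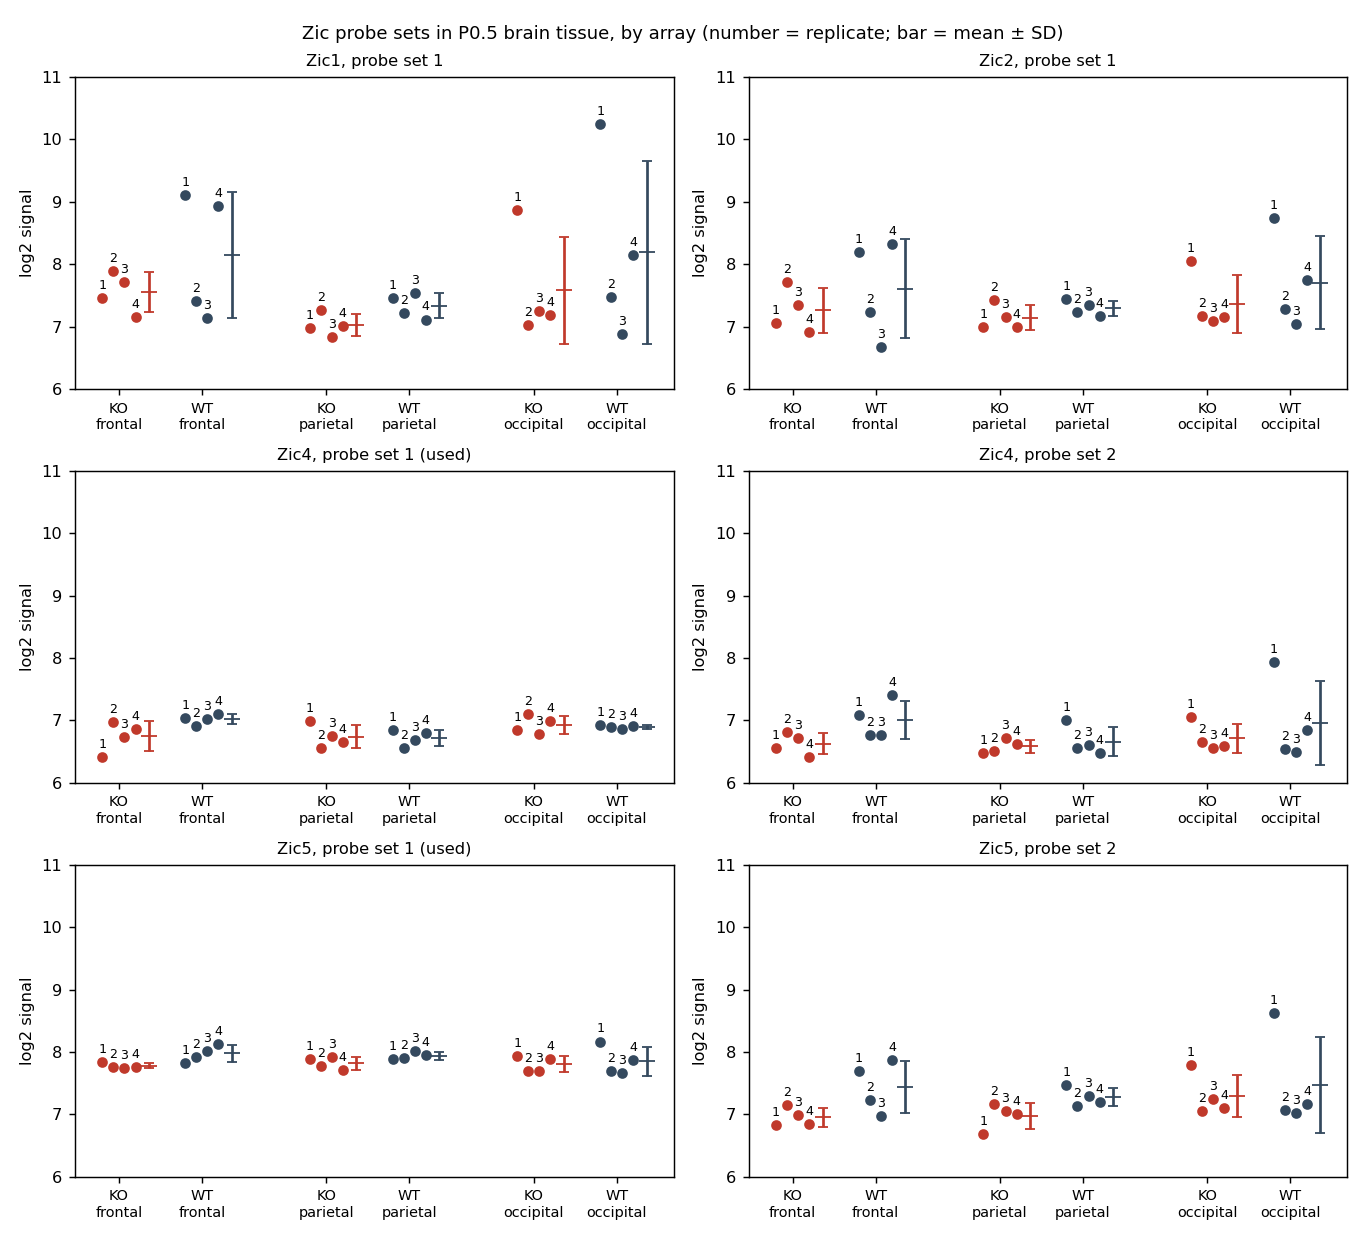
Log2 signal (vertical axis) of each Zic probe set at P0.5, in frontal, parietal and occipital tissue with KO left of WT, one point per array and bars for the group mean ± SD. Zic1 and Zic2 spread widely in WT frontal and WT occipital tissue, where Zic1 reached 9.10 and 10.24, and the Zic4 and Zic5 probe sets that were used stay narrow.

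The fainter Zic5 probe set had the larger SD in every group, and the fainter Zic4 probe set in the WT groups and KO occipital tissue. In KO frontal and KO parietal tissue the fainter Zic4 probe set had the smaller SD, 0.171 and 0.105 against 0.246 and 0.181. The other Zic4 probe set had 6.56, 6.81, 6.72 and 6.42 in KO frontal arrays, against 7.09, 6.76, 6.77 and 7.41 in WT frontal arrays, and 7.06, 6.66, 6.56 and 6.59 in KO occipital arrays, against 7.94, 6.54, 6.50 and 6.84 in WT occipital arrays. WT frontal arrays 1 and 4 and array 1 of both occipital groups were high, as for Zic1. Its differences were -0.38, -0.08 and -0.24 in frontal, parietal and occipital tissue and -0.23 over the regions (limma adjusted p = 0.232, 0.989, 0.736 and 0.328), so its direction in parietal and occipital tissue was opposite to that of the probe set used. The 2 Zic4 probe sets had mean signals of 6.84 and 6.76, so the choice between them rested on a small difference in level.

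The other Zic5 probe set had 6.83, 7.15, 6.98 and 6.84 in KO frontal arrays, against 7.70, 7.23, 6.97 and 7.87 in WT frontal arrays, and 7.79, 7.06, 7.24 and 7.11 in KO occipital arrays, against 8.62, 7.07, 7.02 and 7.17 in WT occipital arrays. WT frontal arrays 1 and 4 and array 1 of both occipital groups were again the high ones. Its differences were -0.49, -0.30 and -0.17 in the 3 regions (limma adjusted p = 0.193, 0.881 and 0.855) and -0.32 ± 0.134 over the regions (SE, n = 4 values each; limma adjusted p = 0.201).

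**Figure D3:**
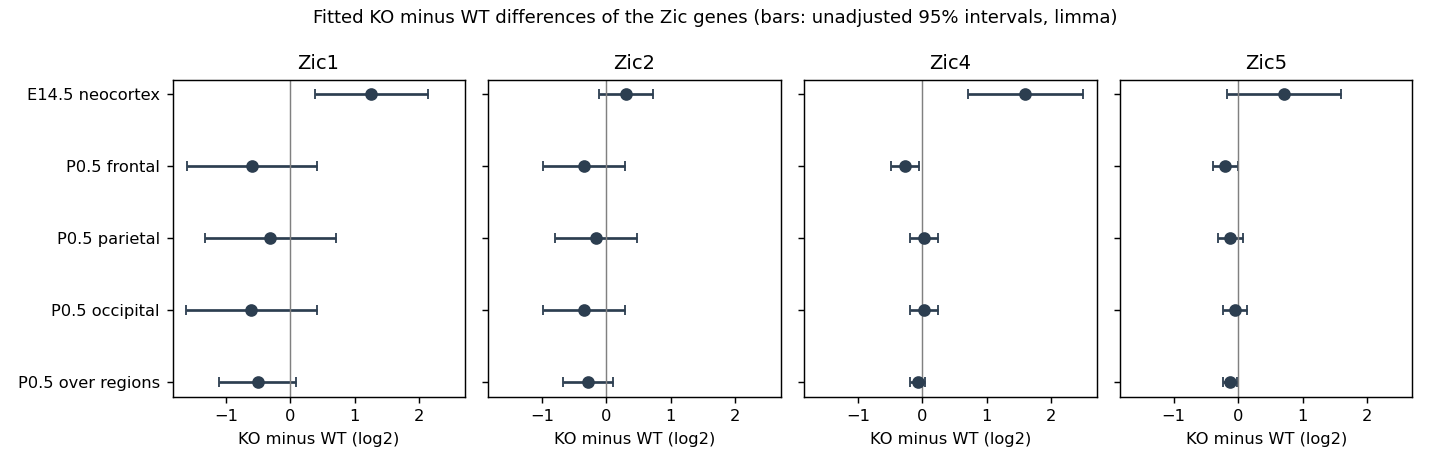
Log2 difference between KO and WT (horizontal axis) of each Zic gene at E14.5 and in the P0.5 comparisons, with 95% intervals from limma. The E14.5 differences of Zic1 (1.25) and Zic4 (1.60) lie to the right of 0. At P0.5 Zic1, Zic2 and Zic5 lie to the left of it, with intervals that include 0 for Zic1 and Zic2. Those of Zic5 include 0 in parietal and occipital tissue only. Zic4 has an interval below 0 in frontal tissue (-0.488 to -0.055) and lies at 0.02 in parietal and 0.03 in occipital tissue.

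The Y-linked level, which marks male tissue, differed between the P0.5 groups. The mean signal of 3 Y-linked genes ranged from 5.09 to 5.99 in KO frontal arrays and from 8.99 to 9.15 in WT frontal arrays, from 5.36 to 9.11 in KO and 5.76 to 9.25 in WT parietal arrays, and from 5.88 to 9.32 in KO and 9.20 to 9.44 in WT occipital arrays. Same-numbered arrays of different regions could differ in that level. KO number 1 had 5.09 in frontal, 9.11 in parietal and 9.32 in occipital tissue, and WT number 2 had 9.02, 5.76 and 9.44. Arrays of all 4 KO numbers and of WT number 2 spanned both levels, so those same-numbered arrays did not come from 1 animal. The values over the regions, with their n of 4, therefore rest on a grouping by number only. In the fit of all 24 arrays without that grouping, Zic1 differed by -0.50 and Zic5 by -0.12 over the regions (limma adjusted p = 0.331 and 0.172), where 1891 of 19938 genes passed. When the mean Y-linked signal entered the fit as a covariate, a setting planned with the others, the differences over the regions were 0.44 for Zic1, 0.10 for Zic2 and 0.06 for Zic5 (limma adjusted p = 1 for each), opposite in sign to those without it. In frontal tissue the KO and WT ranges did not meet, and neither did those of the level averaged by number over the regions. Over the regions 3 of 3 Y-linked genes fell in KO, with a median difference of -1.83. Genotype and this level therefore cannot be told apart in either comparison, and the differences with the covariate cannot be read as genotype effects.

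Between regions of WT cortex 0 of 4 members passed the threshold, beside 6.03% of all genes for frontal against occipital, 0.171% for frontal against parietal and 0.451% for parietal against occipital tissue. At an unadjusted p under 0.05 there was 1 member, Zic4 in frontal against parietal tissue, beside 26.7%, 12.9% and 7.66% of all genes in the 3 comparisons. Zic1 differed by 0.82 ± 0.493 between WT frontal and WT parietal tissue and by -0.86 ± 0.493 between WT parietal and WT occipital tissue (SE, n = 4 arrays each; limma adjusted p = 0.455 and 0.766), and by -0.04 between WT frontal and WT occipital tissue. Parietal tissue was thus the lowest in mean, and the 95% intervals of both differences included 0. Leaving out each array gave -1.29 to -0.17 for Zic1 and -0.63 to -0.06 for Zic2 between WT parietal and WT occipital tissue, the smallest in size without WT occipital array 1. Zic2 had the same order, with differences of 0.31, -0.41 and -0.09 in those comparisons.

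The Zic4 probe set used was the one member whose regional groups did not overlap. It had 7.04, 6.91, 7.03 and 7.11 in WT frontal arrays, against 6.84, 6.55, 6.69 and 6.79 in WT parietal arrays, a difference of 0.30 ± 0.105 (SE, n = 4 arrays each; limma adjusted p = 0.29). In WT occipital arrays it had 6.92, 6.90, 6.86 and 6.91, so WT parietal was 0.18 lower than WT occipital tissue (limma adjusted p = 0.77), again without overlap. Every frontal array was higher than every parietal one for 2.85% of all genes, and every parietal array lower than every occipital one for 2.89%. The other Zic4 probe set overlapped, with 7.09, 6.76, 6.77 and 7.41 in WT frontal arrays, against 7.00, 6.56, 6.60 and 6.48 in WT parietal arrays (difference 0.35, limma adjusted p = 0.455). Zic5 differed by at most 0.12 in size between WT regions.

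Within KO cortex 0 of 4 members passed between frontal and occipital, frontal and parietal, or parietal and occipital tissue, beside 3.22%, 0.236% and 0.351% of all genes. The interaction contrasts, which test whether a regional difference is the same in KO and WT, also had 0 of 4 members past the threshold, beside 0.416% for frontal against occipital, 0.01% for frontal against parietal and 0.01% for parietal against occipital tissue. At an unadjusted p under 0.05 there were 0 members in any of these 6 comparisons, beside 20.1%, 8.13% and 3.93% of all genes for the interactions. Within KO, 1314 genes with a positive and 1569 with a negative frontal against occipital difference had such a p, as had 8.11% and 7.04% of all genes in the comparisons of frontal and of occipital with parietal tissue. The interaction for Zic4 between frontal and occipital tissue was -0.30 ± 0.149 (SE, n = 4 arrays in each group; limma adjusted p = 0.251).

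Across the 24 P0.5 arrays Zic1 and Zic2 varied together, and the Zic4 and Zic5 probe sets used did so less. Zic1 and Zic2, which lie on different chromosomes, had a Pearson r of 0.948 and a Spearman rho of 0.857, and r was 0.951 after the 6 group means were removed and 0.906 without the 2 arrays farthest from the Zic1 median. Zic1 had r of 0.904 with the other Zic4 probe set and 0.894 with the other Zic5 probe set, against 0.295 and 0.535 with the probe sets used. The 2 probe sets of Zic4 had r of 0.376 with each other, and those of Zic5 0.600. The arrays share an RMA run and dissection groups, and these values are descriptions.

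**Figure D4:**
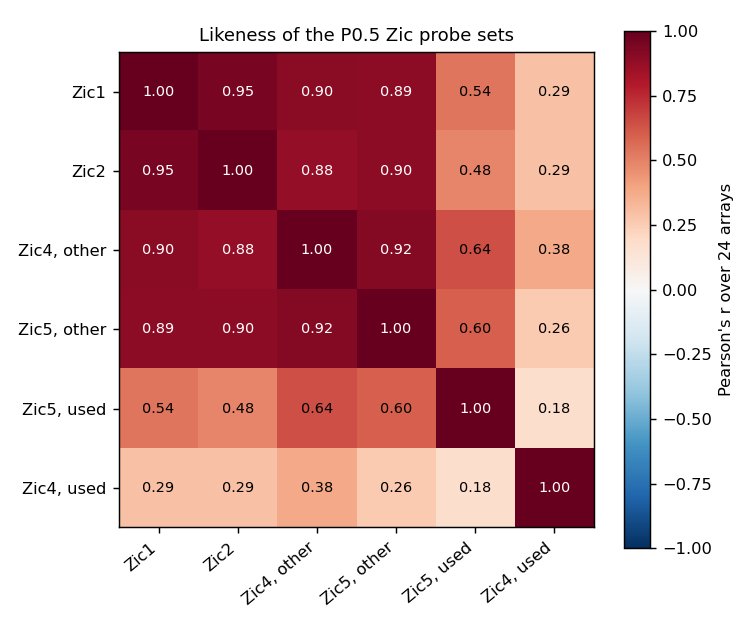
Pearson r between the 6 Zic probe sets over the 24 P0.5 arrays, one cell per pair. Zic1, Zic2 and the other probe sets of Zic4 and Zic5 have r from 0.876 to 0.948 with each other, and the Zic4 probe set that was used has r of at most 0.376 with any of them.

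The genes most like Zic1 over the 24 arrays, ranked by Pearson r among all 19938 genes, were Zic2, Itih5 (0.914), Wls (0.91), Frem1 (0.91) and Tmem132c (0.902). Wls encodes a carrier needed for Wnt secretion, and Frem1 an extracellular matrix protein of basement membranes. For Zic2 they were Zic1, Wls (0.92), Frem1 (0.915), Itih5 (0.911) and Sparc (0.907), a secreted matrix protein. For the Zic4 probe set used they were Tnnt3, Ifnk, Uox, Ager and Stx11, with r from 0.80 to 0.849, and for the Zic5 probe set used Foxl1, Gxylt2, Khdc3, Nags and Calml4, with r from 0.712 to 0.771.

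The arrays with high Zic1 at P0.5 also had high signals of meningeal fibroblast genes. The mean of the 14 meningeal genes was 7.17, 8.35, 8.19 and 6.94 in KO frontal arrays, against 8.73, 7.23, 6.97 and 9.19 in WT frontal arrays. It was 7.12, 7.12, 6.99 and 7.08 in KO parietal arrays, against 7.89, 6.90, 6.88 and 6.87 in WT parietal arrays. It was 8.002, 7.16, 7.27 and 7.25 in KO occipital arrays, against 8.72, 7.48, 6.88 and 8.48 in WT occipital arrays. The 5 arrays with a Zic1 signal above 8 were WT frontal 1 and 4, WT occipital 1 and 4 and KO occipital 1, and each had a meningeal mean above 8, as had KO frontal arrays 2 and 3 with Zic1 at 7.89 and 7.71.

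Over the 24 arrays the Pearson r of Zic1 was 0.848 with the meningeal mean (rho 0.798), 0.813 after group means were removed and 0.849 without the 2 arrays farthest from the Zic1 median. It was 0.807 with the mean of 15 dorsal midline genes, Lhx2 included. With 8 thalamic genes it was 0.798, with 10 Cajal-Retzius genes 0.613 and with 7 choroid plexus genes 0.547. Without the 2 farthest arrays these became 0.787, 0.667, 0.312 and 0.157, so the last pair rested on those arrays. After group means were removed they were 0.792, 0.83, 0.686 and 0.494, and with 8 septal genes, at 0.09 before, r became 0.825, so high values were not limited to the meningeal list. WT occipital array 1, the array with the highest Zic1, also had the highest thalamic (8.41) and choroid plexus (8.13) means of its group. In WT frontal against parietal tissue all 14 meningeal genes had a positive difference, beside 10210 of all 19938 genes. The median of the 14 was 0.82, and 0 of them passed the threshold (limma; 10 had an unadjusted p under 0.05). Their part in the Zic values was not tested.

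**Figure D5:**
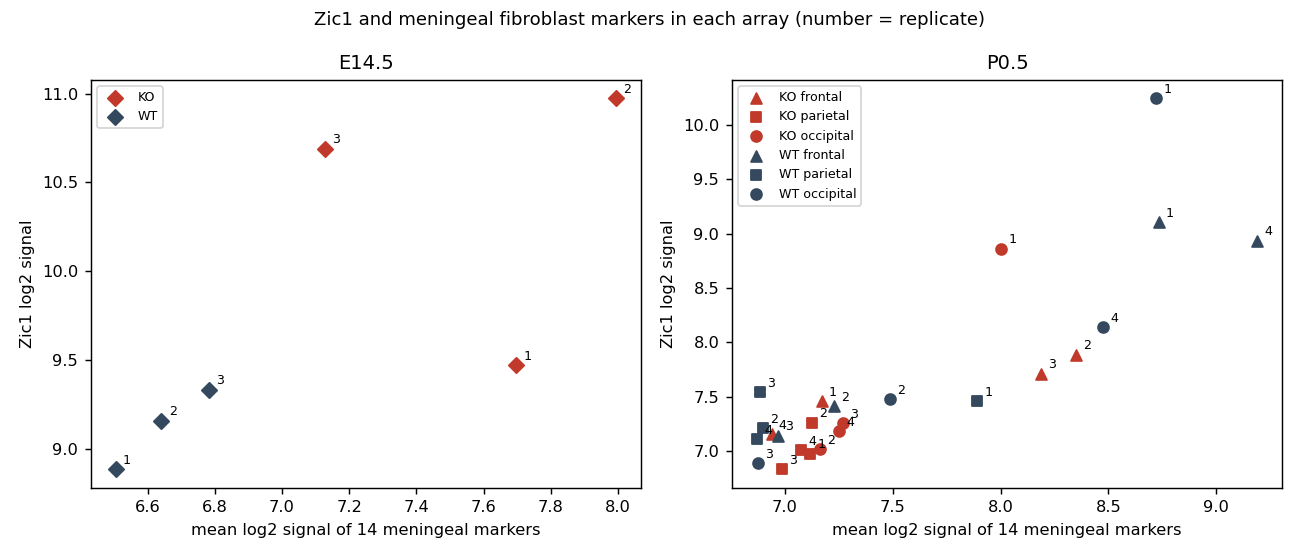
Zic1 log2 signal (vertical axis) against the mean log2 signal of 14 meningeal fibroblast genes (horizontal axis), one point per array, coloured by genotype and shaped by region, for E14.5 and P0.5. At P0.5 the arrays with Zic1 above 8 all have a meningeal mean above 8, and at E14.5 all 3 KO arrays lie right of the WT arrays.

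The related zinc finger genes and the hedgehog pathway mostly did not pass the threshold. Over the P0.5 regions 4.71% of all genes rose and 2.75% fell in KO, and in WT frontal against occipital tissue 2.26% were higher and 3.77% lower. Over the regions 1488 genes passed, against 71 with the Y-linked covariate, and genotype and the Y-linked level cannot be told apart there. Of 6 Gli and Glis genes 1 rose in KO over the P0.5 regions, Gli3, the main repressor of hedgehog targets in the forebrain, by 0.23 on the log2 scale (limma adjusted p = 0.0139). Of 14 measured hedgehog pathway genes 1 rose, the coreceptor Boc by 0.28 (limma adjusted p = 0.00644), and Hhip, which binds hedgehog ligands, differed by 0.26 (adjusted p = 0.0512). The medians of the lists were 0.05 and 0.01, beside -0.01 over all genes. In WT frontal against occipital tissue Hhip and the receptor Gpr161 were lower by 0.58 and 0.34 (limma, log2 differences of -0.58 and -0.34, adjusted p = 0.017 and 0.0487). At E14.5 none of these genes passed.

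Among genes of places where Zic factors are known, 4 of 10 Cajal-Retzius genes fell in KO over the P0.5 regions. They were Reln, the secreted guide of neuronal migration, with a difference of -0.53, Nhlh2 with -0.49, Lhx5 with -0.27 and Trp73 with -0.25 (limma adjusted p = 4.87e-05, 5.13e-05, 0.0346 and 0.00567). Of all genes 2.75% fell over the regions, and the limit from the Y-linked level holds for these calls too. Zic signals did not separate the genotypes over the same values. Of 15 dorsal midline genes 0 passed there, including the ligands Rspo2 at -0.21 and Bmp5 at -0.50 (limma adjusted p = 0.197 and 0.205), and the list median was -0.11. Of 14 meningeal genes 0 passed, with a median of -0.39, and of 7 choroid plexus genes 0 passed. In WT frontal against occipital tissue Rspo2 was higher by 0.82 and Lhx2, which restrains the hem, lower with -0.39 (limma adjusted p = 0.0161 and 0.0165), and Ndnf of the Cajal-Retzius list was lower with -0.87 (adjusted p = 0.0148).

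The chromosome neighbours of the members were also looked at. At E14.5 Clybl, the protein-coding gene beside Zic5, had a difference of 1.08 (limma adjusted p = 0.85) and no overlap between KO and WT. Tbc1d2b beside Zic1, Pcca beside Zic2 and 2610035F20Rik differed by 0.47, 0.57 and 0.26 (adjusted p = 0.858, 0.884 and 0.858). Of these 4 genes Pcca overlapped between KO and WT and the other 3 did not, beside the 7.43% of all genes that were higher in every KO array. Over the P0.5 regions Clybl, Pcca and Tbc1d2b differed by 0.14, 0.12 and 0.03 between KO and WT (limma adjusted p = 0.417, 0.175 and 0.789). Clybl was lower in WT frontal than in WT occipital tissue, with a difference of -0.54 (limma adjusted p = 0.0377).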

How the data were processed

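RNA of 30 mouse cortex samples was measured on Affymetrix arrays. The deposited values were log2 probe set signals, and the submitters' processing notes name Affymetrix Expression Console 1.1 and RMA. The genome build of the probe sets is not given in the sources used here. Genes were named through the platform annotation. Of the E14.5 probe sets 34958 named 1 gene, 932 several and 9211 none, and of the P0.5 probe sets 21789, 1621 and 12147. The brightest probe set of a gene was kept, which left 18194 genes for E14.5 and 19938 for P0.5. There was no filter and no further normalisation.

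The tables were fitted apart with limma 3.58.1 in R 4.3.3 (empirical Bayes with trend), two-sided, with Benjamini-Hochberg adjustment over all genes and a threshold of 0.05. The 24 P0.5 arrays entered 1 fit of 6 groups. Over the regions, the frontal, parietal and occipital arrays that share a number were averaged, to 4 KO and 4 WT values, although Y-linked signals show that several same-numbered arrays came from different animals. The fit was tested on simulated data.

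The members and gene lists were chosen with earlier results of these data known. The genes named are the members, Tbr1, up to 3 genes a list by p over the regions and in WT frontal against occipital tissue, the 5 genes most like each member, and chromosome neighbours. Lhx5 was named for completing a count of 4, after its values were seen. So were Col1a2, Foxc1, Ptgds and Ebf3, and Reln at E14.5, as examples.

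Pairing was checked by correlating residuals of same-numbered arrays. At E14.5 all 3 pairs were over 0.1 (0.125 to 0.445). At P0.5 so were all 4 between WT parietal and WT occipital tissue (0.124 to 0.276), and in other pairs of groups at least 1 was not (lowest -0.471). The number of arrays limits the precision. The alternatives were averaged probe sets, a filter on the dimmest 30% of genes, median-centred arrays, no trend, array weights, replicate blocks, a Y-linked covariate, fits of the compared groups only, and leaving out each array. The other probe sets of the members, and the values over the regions without averaging by number, were added after seeing the data.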

Additional observations from a re-analysis of the deposited data

Results flagged for a closer look

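In 36 groups of 4 arrays, one for each member probe set and P0.5 group, the highest and lowest array were compared with the rest by Dixon's ratio of gap to range, at its 95% critical value. Chance passes about 1 in 20 groups, and 3 of the 36 passed. KO occipital array 1 stood apart for Zic1 (ratio 0.871) and for Zic2 (ratio 0.92). Its Zic1 signal was 8.86 and its Zic2 signal 8.05, both the highest of that group. WT occipital array 1 stood apart for the Zic5 probe set that was not used (ratio 0.909), with a signal of 8.62. Both arrays also had the highest meningeal mean of their group, 8.002 in KO occipital array 1 and 8.72 in WT occipital array 1, whose part in these values was not tested.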

How the results depend on the processing

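Of 539 recomputed member differences 512 kept their direction and their side of the threshold. Of the others, 3 passed it in place of missing it, and 24 turned in sign. The 24 were values that had not passed in any setting. Several settings leave the group means as they are, so the sign could not turn in them. These were no trend, replicate blocks, the compared groups only, the filter on dim genes, and the 24 arrays without averaging by number. The count of 512 includes them. At E14.5 the number of members past the threshold was 1 with array weights, against 0, and 0 to 1 when each array was left out. In P0.5 frontal tissue it was 0 to 1 when each array was left out. The 3 that passed were Zic4, as given above. With averaged probe sets, Zic4 in KO against WT was -0.028 in parietal and -0.105 in occipital tissue, and Zic5 in WT parietal against occipital tissue -0.052. With the other probe set, Zic4 was -0.077 in parietal and -0.24 in occipital tissue, and Zic5 was -0.029 in WT frontal against occipital and -0.193 in WT parietal against occipital tissue. With the Y-linked covariate the differences over the regions were 0.437 for Zic1, 0.097 for Zic2 and 0.064 for Zic5. With array weights Zic5 in WT frontal against parietal tissue was -0.011. Leaving out each array gave -0.062 to 0.078 for parietal Zic4 and -0.027 to 0.081 for occipital Zic4 in KO against WT. It gave -1.041 to 0.078 for occipital Zic1, -0.57 to 0.002 for occipital Zic2 and -0.112 to 0.057 for occipital Zic5, each highest without WT occipital array 1. In WT frontal against occipital tissue it gave -0.47 to 0.65 for Zic1 and -0.34 to 0.25 for Zic2, and in WT frontal against parietal tissue -0.017 to 0.084 for Zic5. The cause was not tested.

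With the replicate number as a block, the number of members past the threshold was 0 in all 14 comparisons. Zic4 at E14.5 then had a limma adjusted p of 0.568, while its difference of 1.60 could not move under such a block. Counts over all genes moved more. At E14.5 they ranged from 0 to 30 (without KO array 3), against 0. In frontal, parietal and occipital tissue and over the regions they ranged from 247 to 2606, 237 to 1241, 122 to 664 and 71 to 1894, against 1499, 361, 267 and 1488, with the lowest frontal and over-region counts under the Y-linked covariate. For the WT regional comparisons they ranged from 287 to 1917 (frontal against occipital), 24 to 134 (frontal against parietal) and 46 to 452 (parietal against occipital), against 1202, 34 and 90. Within KO they ranged from 247 to 1549, 7 to 730 and 28 to 191, against 643, 47 and 70, and for the interactions from 12 to 530, 0 to 47 and 0 to 17, against 83, 2 and 2. The small groups, the bulk tissue and the disagreement of probe sets limit every P0.5 value of Zic4 and Zic5.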
